A study of Arabidopsis thaliana with 6 samples.

Results

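Plants clear foreign chemicals and reactive lipids in successive steps. Cytochromes P450 and reductases make a molecule more reactive or less toxic, UDP-glycosyltransferases (UGTs) attach a sugar to it, and multidrug and toxic compound extrusion (MATE) carriers move it out of the cytosol. In *Arabidopsis* many genes of these steps respond to oxylipins, the oxidized fatty acids that include the jasmonate precursor 12-oxo-phytodienoic acid (OPDA), through TGA transcription factors, and some respond to signals from stressed mitochondria through NAC transcription factors.

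The 10 genes described here were taken by locus from the count table and are 10 of 28775 genes counted. They comprise the UGTs *UGT74E2* (AT1G05680), *UGT73B3* (AT4G34131), *UGT73B4* (AT2G15490) and *UGT73B5* (AT2G15480), the OPDA reductases *OPR1* (AT1G76680) and *OPR2* (AT1G76690), the cytochromes P450 *CYP81D8* (AT4G37370) and *CYP81D11* (AT3G28740), and the MATE genes *DTX1* (AT2G04040) and AT2G04050. Of these, 9 had enough reads to be tested and *UGT73B4* had 0 counts in all 6 libraries.

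RNA-seq was performed on whole aerobic seedlings, 10 d old per the labels and younger per the paper, collected at the end of the light period. MA-Line1 expressed *Jatropha curcas ERFVII2*, a group VII ethylene response factor, in a stabilized form (*MA-JcERFVII2*) with alanine in place of the N-terminal cysteine. MC-Line3 expressed the wildtype form (*MC-JcERFVII2*), whose cysteine makes it a target of oxygen-dependent degradation. Both were single-insertion homozygous lines in ecotype Col-0 with the 35S promoter and a hygromycin resistance gene, and untransformed Col-0 was the control, with 2 replicates per genotype. Each form was represented by 1 line, so form and line cannot be told apart. The table lists *Arabidopsis* loci, and the level of the transgene itself was not analysed here.

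The libraries held 55279731 to 63891492 counts in MA-Line1, 53084008 to 55374630 in MC-Line3 and 58445620 to 65271057 in Col-0. Levels are given as CPM, the counts scaled to library size after normalization by the trimmed mean of M-values (TMM), and CPM values are set side by side between genes only per kilobase (kb) of annotated exon. Fold changes and p-values are from the quasi-likelihood F-test of edgeR, with Benjamini-Hochberg adjustment over all 21206 genes tested, and a gene was called at an adjusted p under 0.05. Of the 8 root markers (*EXPA18*, *PRP3*, *CASP1* and *TIP2;3* among them), 7 were lower in MA-Line1 than in Col-0 and their summed level was 14.8 to 15.9 CPM in MA-Line1, 42.2 to 45.8 CPM in MC-Line3 and 51.4 to 61.1 CPM in Col-0. The 7 shoot markers (*RCA*, *CA1*, *CAB2* and *LHCA1* among them) summed to 32810 to 34300 CPM in MA-Line1, 36570 to 39110 CPM in MC-Line3 and 46390 to 47420 CPM in Col-0, with 5 of the 7 lower in MA-Line1 than in Col-0. In that comparison 19.1% of all tested genes were called lower. None of the 15 markers was at 0 in any group. In whole seedlings fewer cells of a type and less RNA per cell cannot be told apart, and the part of these differences in the results on the 10 genes was not tested.

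Sequences upstream of the genes were read from the RefSeq genome TAIR10.1 because the factors known to act on this pathway bind short motifs. Windows of 300 bases, from 250 before to 50 after the annotated gene start, were searched on both strands for TGACG (the core of the as-1 element bound by TGA factors), for GCCGCC (the box bound by many ethylene response factors) and for the mitochondrial dysfunction motif bound by NAC factors such as NAC13 and NAC017. TGACG was found in the windows of 6 of the 10 genes, against 23.1% of 28008 *Arabidopsis* windows of this length. The mitochondrial dysfunction motif was found in 3 of the 10, against 1.36% of all windows, and GCCGCC in 0 of the 10, against 2.59%. A match describes the letters only and is not a binding site or a cause. Motifs and genes were both chosen as parts of the same known pathway, so these shares are no independent evidence of enrichment.

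The 250 bases before the start of 3 genes are shown because they hold the TGACG pair of *UGT73B3*, the single upstream TGACG of *CYP81D11* and both motif types of AT2G04050. *CYP81D11* was the 1 tested gene that was lower in MA-Line1 than in MC-Line3. Capitals mark TGACG, its reverse complement CGTCA or the mitochondrial dysfunction motif, and all sequences run 5′ to 3′ on the strand of the gene.
UGT73B3 (chr4:16344819-16345068, minus strand): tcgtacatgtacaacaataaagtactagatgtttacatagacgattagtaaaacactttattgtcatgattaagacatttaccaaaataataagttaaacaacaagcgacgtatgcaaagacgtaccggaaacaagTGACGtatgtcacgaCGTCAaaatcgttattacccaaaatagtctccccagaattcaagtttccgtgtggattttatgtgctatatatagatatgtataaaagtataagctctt
CYP81D11 (chr3:10790554-10790803, minus strand): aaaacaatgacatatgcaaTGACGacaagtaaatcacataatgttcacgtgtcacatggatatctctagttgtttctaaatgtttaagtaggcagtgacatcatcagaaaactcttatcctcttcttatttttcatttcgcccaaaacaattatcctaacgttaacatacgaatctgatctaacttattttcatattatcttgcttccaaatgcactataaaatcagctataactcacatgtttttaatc
AT2G04050 (chr2:1339469-1339718, minus strand): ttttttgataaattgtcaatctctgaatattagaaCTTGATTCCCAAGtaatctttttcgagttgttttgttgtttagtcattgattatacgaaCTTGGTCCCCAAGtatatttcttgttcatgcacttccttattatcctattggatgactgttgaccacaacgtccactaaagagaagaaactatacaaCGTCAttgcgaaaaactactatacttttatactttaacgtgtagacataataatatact
Counted from the gene start, with negative positions before it, the matches of *UGT73B3* lay at -114 to -110 and -99 to -95. The match of *CYP81D11* lay at -231 to -227. In AT2G04050 the mitochondrial dysfunction motif lay at -215 to -203 and -156 to -144, and CGTCA at -59 to -55.

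The other matches to the mitochondrial dysfunction motif, in *UGT74E2* and *CYP81D8*, are shown in windows of 30 bases with the motif in capitals.
UGT74E2 (chr1:1704804-1704833, minus strand): ccgcacatCTTGGTCGCCACGgaacataga
CYP81D8 (chr4:17571862-17571891, minus strand): caaactttCTTGAGGAACAAGacttgactt
The match in *UGT74E2* lay 13 to 25 bases after the annotated start, within the transcript. The match in *CYP81D8* lay at -140 to -128, within the annotated 3′ end of the neighbouring gene AT4G37380. These 2 genes and AT2G04050 are the 3 with the motif, and *UGT74E2*, *CYP81D8* and AT2G04050 also had the 3 highest log2 fold changes of the 9 tested genes in MA-Line1 against Col-0, a description noted after the values were seen. No TGACG was found in the windows of *UGT74E2*, *OPR1*, *OPR2* or *CYP81D8*, while *UGT73B4* held 2 matches and *UGT73B5* and *DTX1* 1 each. The window of *UGT73B4* lies wholly inside the annotated span of *UGT73B5*.

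**Figure D1:**
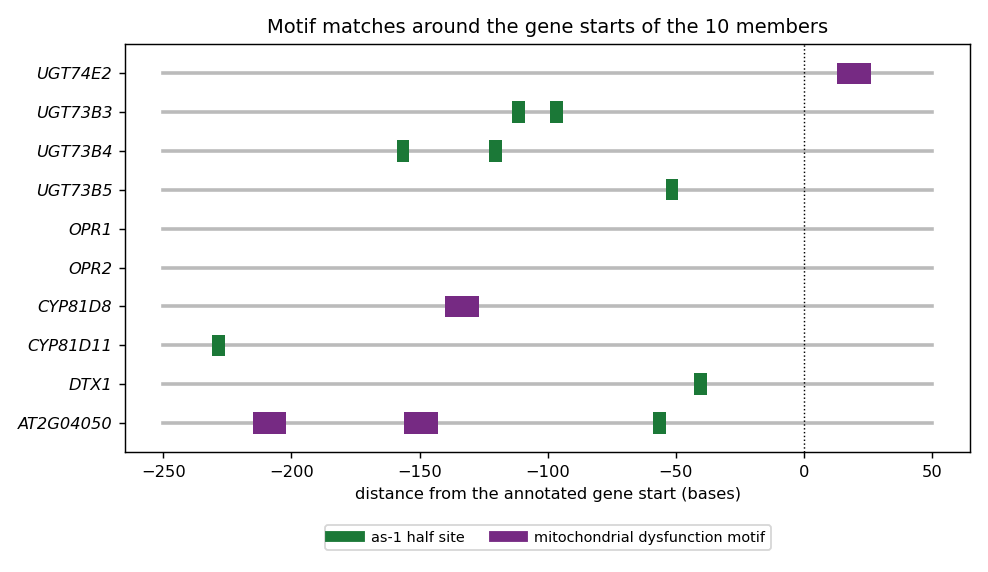
Motif matches in the 300-base window of each of the 10 genes, with distance from the annotated gene start in bases on the horizontal axis and 1 gene per row. TGACG lay in 6 windows and the mitochondrial dysfunction motif in 3, with AT2G04050 the 1 gene that held both.

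The 2 Col-0 libraries differed in the same direction for all 9 genes. On the log2 CPM scale Col-0 replicate 1 was above replicate 2 by a median of 0.59, from 0.27 for *OPR2* to 1.04 for *CYP81D11*, whereas 48.2% of all tested genes were higher in replicate 1 and 3.68% were higher in replicate 1 by that median or more. In MC-Line3, 6 of the 9 genes were higher in replicate 1, with a median difference of 0.19, and in MA-Line1, 5 of the 9, with values between -0.11 and 0.08. The 2 MA-Line1 libraries were thus nearly equal for these genes while the control libraries were not, and each value against Col-0 rests on a mean of 2 unequal libraries.

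**Figure D2:**
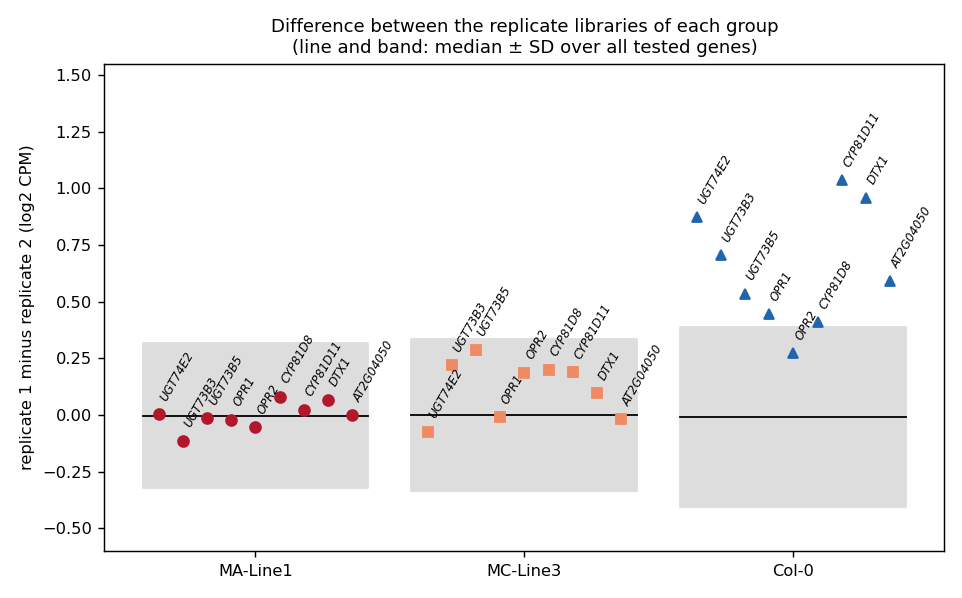
Difference between replicate 1 and replicate 2 of each genotype for the 9 genes, as log2 CPM, with the median and SD over all tested genes as a line and a grey band. The Col-0 points lie between 0.27 and 1.04, all above 0, and the MA-Line1 points between -0.11 and 0.08.

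In MA-Line1, 7 of the 9 tested genes were higher than in Col-0 and 0 were lower. Among all genes tested 18% were called higher and 19.1% lower, 37.1% in all. Both MA-Line1 libraries lay above both Col-0 libraries for 7 of the 9 and below them for 0, where 36.3% of all genes lay above and 34.2% below. The median log2 fold change of the 9 was 0.83, beside 0.01 over all genes. In MC-Line3, 2 of the 9 were called higher than in Col-0 (*UGT74E2* and *OPR2*) and 1 lower (*CYP81D8*), where 14.5% of all genes were called higher and 16.7% lower, 31.2% in all. Both MC-Line3 libraries lay above both Col-0 libraries for 3 of the 9 and below them for 1, where 32.9% of all genes lay above and 31.7% below. The median in MC-Line3 was -0.02, beside 0.01 over all genes. Both comparisons share the Col-0 libraries. In the direct test of MA-Line1 against MC-Line3, 8 of the 9 were higher and 1, *CYP81D11*, was lower, where 11.3% of all genes were called higher and 8.68% lower, 20% in all. The 4 libraries of these lines did not overlap for any of the 9, again 8 above and 1 below, where 30.2% of all genes lay above and 31.9% below. The median was 0.77, beside -0.01 over all genes.

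**Figure D3:**
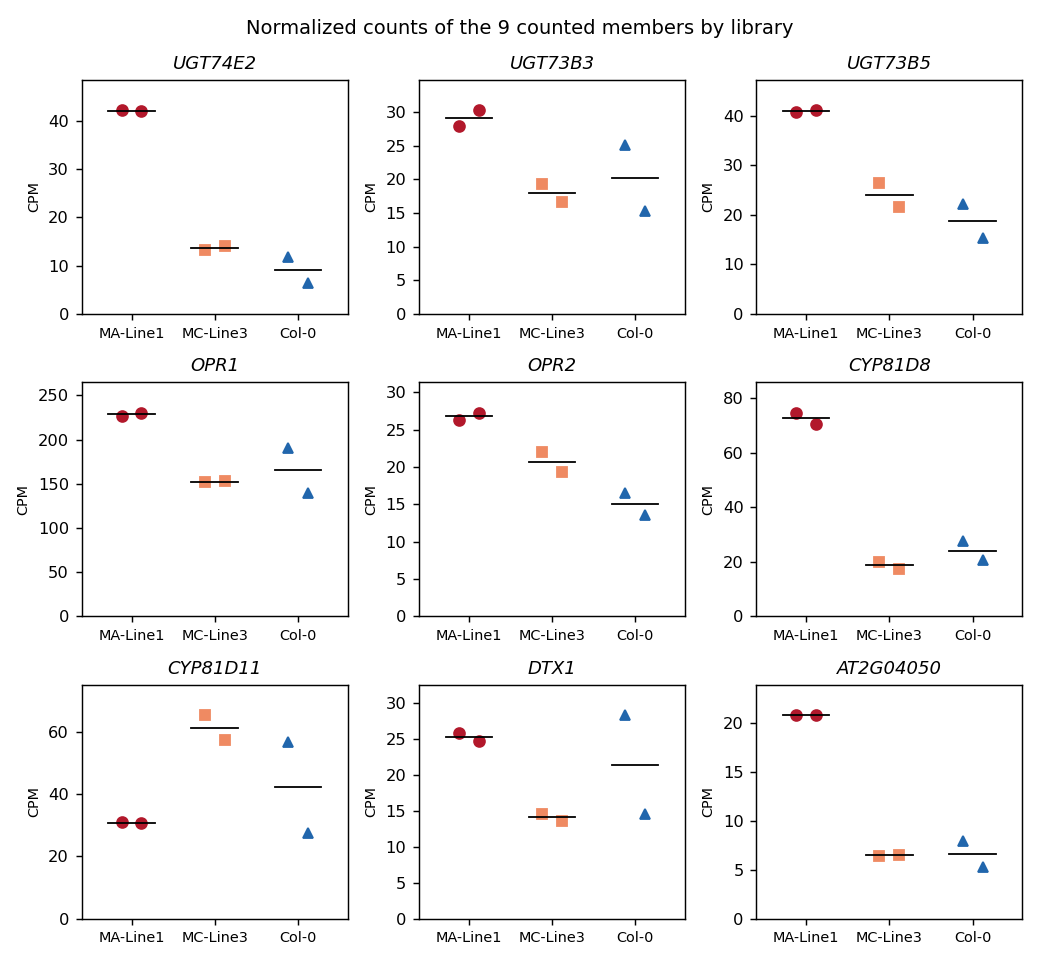
Level of each gene in each library, in CPM on the vertical axis, with MA-Line1 and MC-Line3 left of Col-0 and a line at each mean. Both MA-Line1 points lay above both Col-0 points for 7 of the 9 genes with counts, and the 2 Col-0 points lay far apart for *CYP81D11* and *DTX1*.

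**Figure D4:**
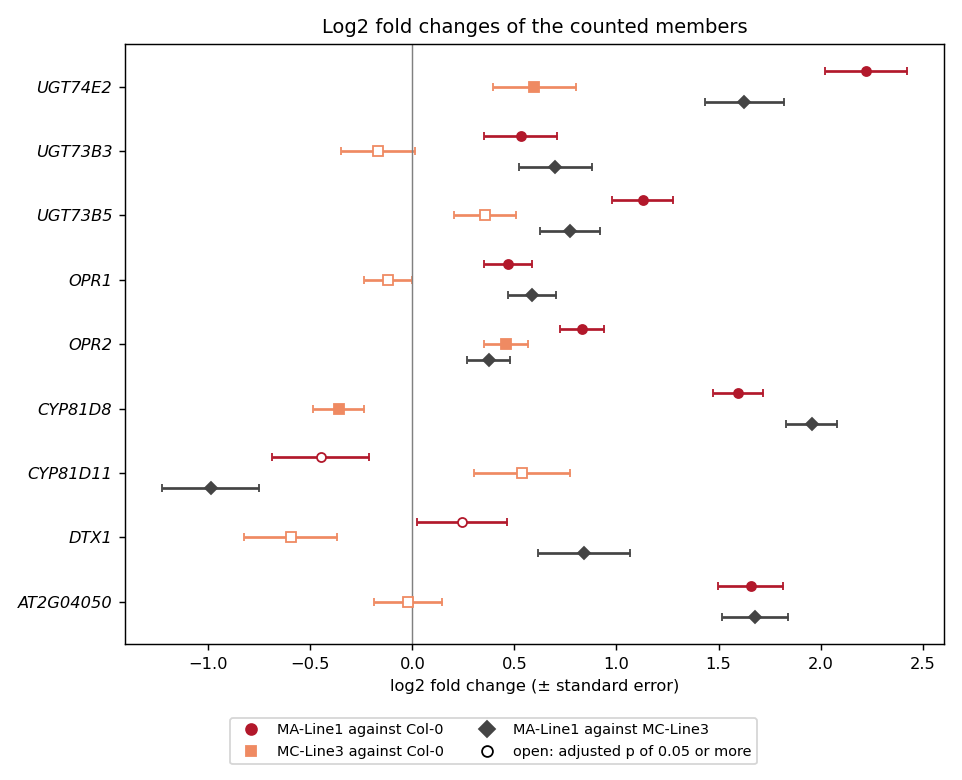
Log2 fold change with its standard error for the 9 tested genes in MA-Line1 against Col-0, MC-Line3 against Col-0 and MA-Line1 against MC-Line3, with open symbols for an adjusted p of 0.05 or more. In MA-Line1 against Col-0 the values ran from -0.45 for *CYP81D11* to 2.22 for *UGT74E2*.

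*CYP81D8* (chromosome 4, 17569740 to 17571743, minus strand) encodes a cytochrome P450 whose transcript is a widely used marker of chemical and oxidative stress. Its level was 74.6 and 70.5 CPM in MA-Line1, 20.0 and 17.4 CPM in MC-Line3 and 27.4 and 20.7 CPM in Col-0. Both MA-Line1 libraries stood above all others, and both MC-Line3 libraries stood below both Col-0 libraries. *CYP81D8* was 3.02-fold higher in MA-Line1 than in Col-0, a log2 fold change of 1.60 (SE 0.12, edgeR adjusted p = 5.99e-06). Against MC-Line3 it was 3.88-fold higher, a log2 fold change of 1.96 (SE 0.12, edgeR adjusted p = 2.99e-06). Both calls held in each of the 6 fits that left out 1 library. In MC-Line3 it was 0.779 times Col-0, a log2 fold change of -0.36 (SE 0.12, edgeR adjusted p = 0.0479). This last call was kept in 1 of the 6 fits, the one without Col-0 replicate 2, at -0.56 (edgeR adjusted p = 0.000198), and without Col-0 replicate 1 the log2 fold change was -0.15 (edgeR adjusted p = 0.244).

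*CYP81D11* (chromosome 3, 10788698 to 10790553, minus strand) encodes a related P450 that is induced by the oxylipin cis-jasmone. Its level was 31.1 and 30.6 CPM in MA-Line1, 65.3 and 57.3 CPM in MC-Line3 and 56.8 and 27.7 CPM in Col-0. MC-Line3 was the highest genotype, and the MA-Line1 libraries lay between the 2 Col-0 libraries. It was the 1 tested gene lower in MA-Line1 than in MC-Line3, with a log2 fold change of -0.99 (SE 0.24, edgeR adjusted p = 0.0135). Leaving out any 1 of the MA-Line1 or MC-Line3 libraries removed this call, where log2 fold changes ran from -1.08 to -0.88, and so did DESeq2 (adjusted p = 0.0811). Against Col-0 the log2 fold change was -0.45 for MA-Line1 (SE 0.24, edgeR adjusted p = 0.162) and 0.54 for MC-Line3 (SE 0.23, edgeR adjusted p = 0.106). The value in MA-Line1 was 0.16 without Col-0 replicate 1 (edgeR adjusted p = 0.177) and -0.87 without Col-0 replicate 2 (edgeR adjusted p = 3.59e-07), so its sign depended on 1 control library. The value in MC-Line3 was 1.14 without Col-0 replicate 1 (edgeR adjusted p = 3.04e-08) and 0.10 without Col-0 replicate 2 (edgeR adjusted p = 0.406).

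Of 7 tested relatives of the *CYP81D* genes, 1 was higher and 3 were lower in MA-Line1 than in Col-0, with a median log2 fold change of -0.21, and 0 were higher and 4 lower in MC-Line3. Across all tested genes, 18% were called higher and 19.1% lower in MA-Line1, and 14.5% and 16.7% in MC-Line3. *CYP81D3* and *CYP81D4*, from the same stretch of chromosome 4 as *CYP81D8*, had log2 fold changes of -0.82 and -0.51 in MA-Line1 against Col-0 (edgeR adjusted p = 0.0338 and 0.000365). *CYP81F3* was lower too, at -0.84 on the log2 scale (edgeR adjusted p = 0.0305). *CYP81D1* was the 1 relative called higher, at 0.31 (edgeR adjusted p = 0.0343), and it was lower in MC-Line3, at -0.51 (edgeR adjusted p = 0.00397). Without 1 library at a time, the calls in MA-Line1 were kept in 6 of 6 fits for *CYP81D4*, 2 for *CYP81F3*, 1 for *CYP81D3* and 1 for *CYP81D1*, whose value was 0.17 without Col-0 replicate 1. *CYP81D5* and *CYP91A2*, also on chromosome 4, were not called in MA-Line1, at -0.21 and 0.62 (edgeR adjusted p = 0.0995 and 0.214).

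*OPR1* and *OPR2* lie side by side on chromosome 1 (28776626 to 28778837 and 28778622 to 28780483, plus strand) and encode flavoprotein reductases that act on OPDA-like oxylipins and on xenobiotics such as trinitrotoluene. Neither is held to carry out the main OPDA reduction of jasmonate synthesis, which is a step of OPR3. *OPR1* had 227 and 230.3 CPM in MA-Line1, 151.8 and 152.9 CPM in MC-Line3 and 190.7 and 140.1 CPM in Col-0. Both MA-Line1 libraries stood above the rest, and the MC-Line3 libraries lay between those of Col-0. The log2 fold change of *OPR1* was 0.47 in MA-Line1 against Col-0 (SE 0.12, edgeR adjusted p = 0.00991). Without MA-Line1 replicate 1 or replicate 2 it was 0.48 and 0.46, with edgeR adjusted p-values of 0.0526 and 0.0599. It was called at 0.71 without Col-0 replicate 1 and at 0.27 without Col-0 replicate 2 (edgeR adjusted p = 3.97e-07 and 0.00555). In MA-Line1 against MC-Line3 the log2 fold change was 0.59 (SE 0.12, edgeR adjusted p = 0.00506), with adjusted p-values of 0.0554 and 0.0597 when MC-Line3 replicate 1 or 2 was left out. For MC-Line3 against Col-0 it was -0.12 (SE 0.12, edgeR adjusted p = 0.485). That value was 0.11 without Col-0 replicate 1 and -0.33 without Col-0 replicate 2 (edgeR adjusted p = 0.00133).

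*OPR2* had 26.2 and 27.3 CPM in MA-Line1, 22.0 and 19.3 CPM in MC-Line3 and 16.5 and 13.6 CPM in Col-0. The 3 genotypes did not overlap, in the order MA-Line1, MC-Line3 and Col-0. The log2 fold change was 0.83 for MA-Line1 against Col-0 (SE 0.11, edgeR adjusted p = 0.000184) and 0.46 for MC-Line3 against Col-0 (SE 0.11, edgeR adjusted p = 0.00907). The call in MA-Line1 held in all 6 fits that left out 1 library. The call in MC-Line3 was lost without MC-Line3 replicate 1, at 0.36 (edgeR adjusted p = 0.0903). MA-Line1 was also above MC-Line3, by a log2 fold change of 0.37 (SE 0.11, edgeR adjusted p = 0.0306), a call that was lost without any 1 of the 4 libraries of these lines (0.28 to 0.48). The annotated spans of *OPR1* and *OPR2* overlap by 216 bases. Of their 50-base exon words, 4.21% and 5.81% also occur elsewhere in the genome. Reads in either of these parts may be shared or dropped.

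The jasmonate-forming *OPR3* was lower in both lines. Against Col-0 it was at -0.39 on the log2 scale for MA-Line1 (SE 0.11, edgeR adjusted p = 0.0171) and at -0.37 for MC-Line3 (SE 0.11, edgeR adjusted p = 0.0247). Each call was kept in 3 of 6 fits without 1 library, and without Col-0 replicate 2 both values were -0.17. The other tested relatives, AT1G09400 and AT1G17990, had log2 fold changes of 0.74 and 0.28 in MA-Line1 against Col-0 and were not called (edgeR adjusted p = 0.117 and 0.740), and AT1G18020 had too few counts to be tested. All 50-base exon words of AT1G17990 and AT1G18020 occur elsewhere, so their counts are uncertain. Among 11 jasmonate synthesis genes, 2 were higher and 6 lower in MA-Line1 than in Col-0 (median log2 fold change -0.32), and 1 was higher and 7 lower in MC-Line3 (median -0.29). The shares over all tested genes were 18% higher and 19.1% lower in MA-Line1, and 14.5% and 16.7% in MC-Line3. When 1 library was left out, the lower calls were 4 to 7 in each line. *AOC1*, an allene oxide cyclase, and *AOS*, the allene oxide synthase, had log2 fold changes of -1.13 and -0.67 in MA-Line1 (edgeR adjusted p = 1.19e-05 and 0.000192). *LOX2*, a chloroplast lipoxygenase, was higher at 0.73 (edgeR adjusted p = 6.45e-05), and *OPCL1*, a CoA ligase acting after OPR3, was lower at -0.57 (edgeR adjusted p = 0.00324). *OPR1* and *OPR2* were thus higher in MA-Line1 while most called genes among the 11 listed for jasmonate synthesis were lower.

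*UGT74E2* (chromosome 1, 1703002 to 1704838, minus strand) encodes a hydrogen peroxide-inducible UGT that glucosylates the auxin indole-3-butyric acid. Its level was 42.1 and 42.02 CPM in MA-Line1, 13.3 and 14.0 CPM in MC-Line3 and 11.7 and 6.38 CPM in Col-0. The 3 genotypes did not overlap, although the Col-0 libraries differed more from each other than the MC-Line3 libraries did. *UGT74E2* was 4.67-fold higher in MA-Line1 than in Col-0, the highest fold change of the 9 genes in this comparison, with a log2 fold change of 2.22 (SE 0.20, edgeR adjusted p = 1.69e-05). The log2 fold change was 1.85 without Col-0 replicate 2 and 2.73 without Col-0 replicate 1. Against MC-Line3 it was 3.09-fold higher, a log2 fold change of 1.63 (SE 0.19, edgeR adjusted p = 0.000172). Set against Col-0, the log2 fold change of MC-Line3 was 0.60 (SE 0.20, edgeR adjusted p = 0.0453). That call was kept in 1 of 6 fits that left out 1 library. Without Col-0 replicate 2 it was 0.21 (edgeR adjusted p = 0.123), without Col-0 replicate 1 it was 1.09, and DESeq2 gave an adjusted p of 0.218.

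*UGT73B5* (chromosome 2, 6758430 to 6763501, plus strand) and *UGT73B3* (chromosome 4, 16343057 to 16344818, minus strand) encode UGTs needed for a full response to *Pseudomonas syringae* and linked to redox stress. *UGT73B5* had 40.7 and 41.1 CPM in MA-Line1, 26.3 and 21.6 CPM in MC-Line3 and 22.2 and 15.3 CPM in Col-0. MA-Line1 stood above both other genotypes, and MC-Line3 overlapped Col-0. The log2 fold change was 1.13 in MA-Line1 against Col-0 (SE 0.15, edgeR adjusted p = 0.00021) and 0.77 in MA-Line1 against MC-Line3 (SE 0.15, edgeR adjusted p = 0.00378). The direct comparison lost its call without MC-Line3 replicate 2, at 0.64 (edgeR adjusted p = 0.0710). In MC-Line3 against Col-0 it was 0.36 and was not called (SE 0.15, edgeR adjusted p = 0.0971), and it was 0.64 without Col-0 replicate 1 (edgeR adjusted p = 0.000209), 0.10 without Col-0 replicate 2 (edgeR adjusted p = 0.499) and 0.20 without MC-Line3 replicate 1 (edgeR adjusted p = 0.487).

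*UGT73B3* had 27.96 and 30.3 CPM in MA-Line1, 19.3 and 16.6 CPM in MC-Line3 and 25.04 and 15.4 CPM in Col-0. MA-Line1 again stood above both other genotypes, and both MC-Line3 libraries lay between the Col-0 libraries. The log2 fold change was 0.53 in MA-Line1 against Col-0 (SE 0.18, edgeR adjusted p = 0.0370). Of the 6 fits that left out 1 library, only the one without Col-0 replicate 1 kept this call, at 0.93, and the value was 0.22 without Col-0 replicate 2 (edgeR adjusted p = 0.0990). In MA-Line1 against MC-Line3 it was 0.70 (SE 0.18, edgeR adjusted p = 0.0181), and this call was lost without any 1 of the 4 libraries of these lines (0.59 to 0.83). For MC-Line3 against Col-0 it was -0.17 (SE 0.18, edgeR adjusted p = 0.516), with 0.22 without Col-0 replicate 1 and -0.49 without Col-0 replicate 2 (edgeR adjusted p = 0.00157).

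*UGT73B4* (chromosome 2, 6761635 to 6763500, plus strand) encodes a UGT able to glucosylate trinitrotoluene products. It had 0 counts in each of the 6 libraries, and its 1866 bases lie wholly inside the annotated span of *UGT73B5*. Of 44 protein-coding genes that lie wholly inside another listed gene on the same strand, 38 (86.4%) had 0 counts in every library, against 2782 of 26391 (10.5%) of those that do not. A read that falls in 2 annotated genes is not assigned by HTSeq in its default mode, and the mode used is not given in the sources used here. The zero is therefore not reported as absence of the transcript, and part of what was counted for *UGT73B5* may be affected by the same overlap.

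Among 14 tested relatives of these UGTs, 5 were higher and 2 lower in MA-Line1 than in Col-0 (median log2 fold change 0.21), and 1 was higher and 5 lower in MC-Line3 (median -0.19). For all tested genes the called shares were 18% higher and 19.1% lower in MA-Line1, and 14.5% and 16.7% in MC-Line3. *UGT73C7* had the highest log2 fold change of the relatives, 2.06 in MA-Line1 (edgeR adjusted p = 6.27e-05) and 1.08 in MC-Line3 (edgeR adjusted p = 0.00568). *UGT73B2*, the neighbour of *UGT73B3*, was at 1.06 in MA-Line1 (edgeR adjusted p = 0.000124) and 0.20 in MC-Line3 (edgeR adjusted p = 0.266). AT2G36770 and *UGT73D1* were also higher in MA-Line1, at 1.07 and 1.28 (edgeR adjusted p = 0.0006 and 0.0270), but *UGT73D1* reached no more than 2.00 CPM in any library and 10.1% of the words of AT2G36770 occur elsewhere. The call of *UGT73D1* was kept in 3 of the 6 fits without 1 library, from 0.80 without Col-0 replicate 2 to 1.97. *UGT73B1* had 85.1 and 93.02 CPM in MA-Line1 against 172.8 and 93.2 CPM in Col-0. It was called lower, at -0.58 on the log2 scale (edgeR adjusted p = 0.0474), but Col-0 replicate 2 was at the level of MA-Line1 replicate 2. The 2 lower calls among the relatives became 0 to 3 when 1 library was left out, and in MC-Line3 the 1 higher call became 1 to 6 and the 5 lower calls 1 to 6.

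*DTX1* and AT2G04050 are adjacent MATE genes on chromosome 2 (1334270 to 1336550 and 1337180 to 1339468, minus strand). DTX1 is an efflux carrier for plant alkaloids, antibiotics and other toxic compounds, and AT2G04050 encodes a carrier of the same family. AT2G04050 had 20.8 and 20.8 CPM in MA-Line1, 6.44 and 6.52 CPM in MC-Line3 and 7.94 and 5.27 CPM in Col-0. MA-Line1 stood apart from both other genotypes, while the MC-Line3 libraries lay between those of Col-0. It was 3.15-fold higher in MA-Line1 than in Col-0, a log2 fold change of 1.66 (SE 0.16, edgeR adjusted p = 2.86e-05). Against MC-Line3 it was 3.21-fold higher, a log2 fold change of 1.68 (SE 0.16, edgeR adjusted p = 4.23e-05), and both calls held in all 6 fits that left out 1 library. In MC-Line3 against Col-0 the log2 fold change was -0.02 (SE 0.17, edgeR adjusted p = 0.933).

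*DTX1* had 25.9 and 24.7 CPM in MA-Line1, 14.6 and 13.7 CPM in MC-Line3 and 28.4 and 14.6 CPM in Col-0. The MA-Line1 libraries lay between the Col-0 libraries, and Col-0 replicate 2 was at the level of MC-Line3. *DTX1* differed between the lines, with MA-Line1 above MC-Line3 by a log2 fold change of 0.84 (SE 0.23, edgeR adjusted p = 0.0230). The call was lost without any 1 of the 4 libraries of these lines (0.79 to 0.90) and with DESeq2 (adjusted p = 0.110). Against Col-0 the log2 fold change was 0.24 in MA-Line1 (SE 0.22, edgeR adjusted p = 0.417) and -0.60 in MC-Line3 (SE 0.23, edgeR adjusted p = 0.0676). The value in MA-Line1 was 0.80 without Col-0 replicate 1 (edgeR adjusted p = 6.44e-06) and -0.16 without Col-0 replicate 2 (edgeR adjusted p = 0.205). The value in MC-Line3 was -0.05 without Col-0 replicate 1 and -1.01 without Col-0 replicate 2 (edgeR adjusted p = 3.15e-07). The span of *DTX1* overlaps AT2G04039 by 297 bases, and 7.09% of its 50-base exon words occur elsewhere, against 3.57% for AT2G04050.

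Of the other MATE genes in this stretch of chromosome 2, 4 were tested. AT2G04070 had 268 and 226 counts in MA-Line1, 7 and 9 counts in MC-Line3 and 8 and 14 counts in Col-0. The MA-Line1 libraries were far above the rest, with a log2 fold change of 4.36 against Col-0 (SE 0.32, edgeR adjusted p = 4.93e-06) and 4.75 against MC-Line3 (SE 0.34, edgeR adjusted p = 5.5e-06). Even so, its level in MA-Line1 was 3.96 and 3.93 CPM. AT2G04080 and AT2G04090 were lower in MA-Line1 than in Col-0, at -0.40 and -1.32 (edgeR adjusted p = 0.0333 and 0.00824). Both calls were lost without MA-Line1 replicate 1, and that of AT2G04080 also without MA-Line1 replicate 2 or Col-0 replicate 2 and with scaling by library size alone. AT2G04100 was at -0.22 in MA-Line1 (edgeR adjusted p = 0.164). In MC-Line3 AT2G04100 was lower than in Col-0, at -0.52 (edgeR adjusted p = 0.00742), and AT2G04070, AT2G04080 and AT2G04090 were not called. These copies are similar enough that 22.0% of the words of AT2G04080 and 14.2% of those of AT2G04090 occur elsewhere, and reads may be split among them. AT2G04066 had too few counts to be tested.

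**Figure D5:**
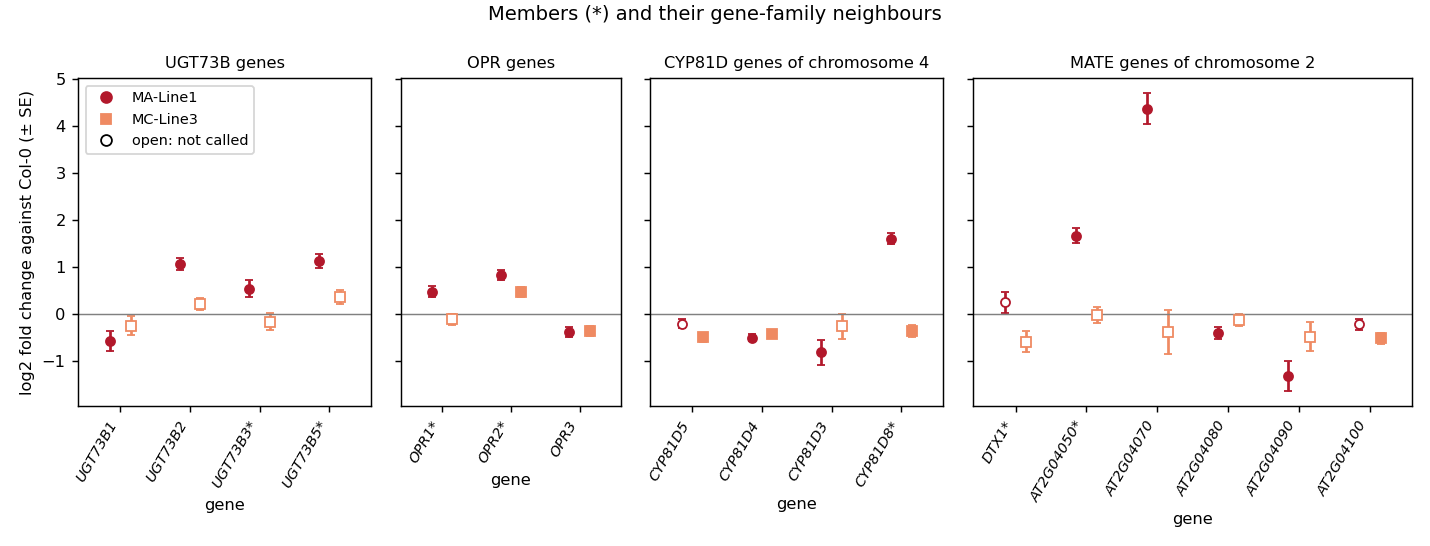
Log2 fold change against Col-0 with its standard error for the genes marked by an asterisk and their close relatives, in MA-Line1 (circles) and MC-Line3 (squares), open where the gene was not called. In MA-Line1 *CYP81D8* was at 1.60 beside -0.82 for *CYP81D3*, and AT2G04070 was at 4.36 beside -1.32 for AT2G04090.

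Per kb of exon, *OPR1* was the most abundant of the 9 genes in every genotype, with means of 108.1 CPM per kb in MA-Line1, 72.0 in MC-Line3 and 78.2 in Col-0. *CYP81D8* came next in MA-Line1 with 40.5 CPM per kb, against 10.45 in MC-Line3 and 13.4 in Col-0. *CYP81D11* came next in MC-Line3 with 38.4 CPM per kb and in Col-0 with 26.5, against 19.3 in MA-Line1. AT2G04050 was the lowest in all 3 genotypes, with 11.3 CPM per kb in MA-Line1, 3.53 in MC-Line3 and 3.60 in Col-0. In MA-Line1, *UGT73B5* had 17.4 ± 0.126, *OPR2* 16.65 ± 0.441 and *UGT73B3* 16.5 ± 0.921 CPM per kb (SD, n = 2 each), and the neighbours in this order differed by less than the SD of *UGT73B3*. The annotated span of *UGT73B5* contains *UGT73B4*, where reads may go unassigned, so its value per kb and its place are uncertain.

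Across the 6 libraries 7 of the 9 genes followed the mean of the other 8 closely, with Pearson's r of 0.86 to 0.96 as a description over 6 libraries from 3 genotypes. *DTX1* followed it less closely (r = 0.714) and *CYP81D11* did not follow it (r = -0.379). Of the genes outside the 10, those most like their mean log2 CPM profile over the same 6 libraries were *IGMT2* (r = 0.995), *ALAAT2* (0.994), AT5G54100 (0.994), AT4G31180 (0.991) and *POR* (0.991). *ALAAT2*, an alanine aminotransferase, had 18.0 and 18.1 CPM in MA-Line1, 12.4 and 12.4 CPM in MC-Line3 and 14.3 and 10.1 CPM in Col-0, so Col-0 replicate 1 was above replicate 2 for it as well.

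Other genes of the same detoxification system were also counted. All 7 tau glutathione S-transferase (GST) genes listed, whose products join glutathione to xenobiotics, were higher in MA-Line1 than in Col-0, with a median log2 fold change of 1.89. In MC-Line3, 4 of the 7 were higher and 1 lower, with a median of 0.37, and in MA-Line1 against MC-Line3 all 7 were higher. Not all 7 kept this last call in every fit that left out 1 library. Over all tested genes, 18% were called higher and 19.1% lower in MA-Line1 than in Col-0, and 14.5% and 16.7% in MC-Line3. In MA-Line1 against MC-Line3 those shares were 11.3% and 8.68%. When 1 library was left out, all 7 stayed higher in MA-Line1 than in Col-0, and 1 to 5 were called higher in MC-Line3. *GSTU3* had the largest values, 3.57 for MA-Line1 and -2.70 for MC-Line3, both log2 against Col-0 (edgeR adjusted p = 2.65e-07 and 1.4e-05). *GSTU4*, *GSTU24* and *GSTU25* were at 2.34, 1.98 and 1.89 in MA-Line1 (edgeR adjusted p at most 2.63e-06). GST genes were named by the study from these same libraries, so this count is not independent evidence of direction.

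Of 9 carbonyl-reducing and other detoxification genes, 6 were higher and 0 lower in MA-Line1 than in Col-0 (median log2 fold change 0.76), and 1 was higher and 2 lower in MC-Line3 (median -0.17). Beside this, 18% of all tested genes were called higher and 19.1% lower in MA-Line1, with 14.5% and 16.7% in MC-Line3. The ABC transporter *ABCG40* had 51.2 and 44.5 CPM in MA-Line1, 4.48 and 5.28 CPM in MC-Line3 and 8.34 and 9.40 CPM in Col-0. It was higher in MA-Line1 and lower in MC-Line3 than in Col-0, with log2 fold changes of 2.43 (edgeR adjusted p = 3.74e-07) and -0.86 (edgeR adjusted p = 0.000475). The auxin transporter *ABCB4* had the same pattern, at 1.11 and -0.38 (edgeR adjusted p = 4.58e-06 and 0.00596). The aldo-keto reductase family genes AT1G60750 and AT1G60730 were at 3.72 and 1.86 in MA-Line1 (edgeR adjusted p = 1.03e-05 and 2.65e-07), and in MC-Line3 only AT1G60750 of this pair was called, at 2.25 (edgeR adjusted p = 0.000504). AT1G60750 had only 0.54 and 0.24 CPM in Col-0. When 1 library was left out, its log2 fold change ran from 3.24 to 4.39 in MA-Line1 and from 1.75 to 2.90 in MC-Line3.

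The transcription factors that act on this system were counted as well. Of 13 TGA, NAC and associated regulator genes, 4 were higher and 3 lower in MA-Line1 than in Col-0 (median log2 fold change 0.06), and 1 was higher and 5 lower in MC-Line3 (median -0.08). Called shares of all tested genes were 18% higher and 19.1% lower in MA-Line1, and 14.5% and 16.7% in MC-Line3. *NAC032* had 28.9 and 28.9 CPM in MA-Line1, 16.7 and 17.0 CPM in MC-Line3 and 15.7 and 16.3 CPM in Col-0, and its log2 fold change against Col-0 was 0.86 for MA-Line1 (SE 0.08, edgeR adjusted p = 2.39e-05). *TGA7*, *NAC13* and *NAC102* were at 0.72, 0.52 and 0.48 in MA-Line1 (edgeR adjusted p = 0.000356, 0.00198 and 0.00035). In MC-Line3 *NAC102* was lower than in Col-0, at -0.23 (edgeR adjusted p = 0.0287), and *NAC032*, *TGA7* and *NAC13* were not called. Without 1 library at a time, the value of *NAC102* in MC-Line3 ran from -0.27 to -0.19, and most of these fits did not keep the call. The numbers of regulator genes called in MC-Line3 also changed between these fits. The 3 lower genes in MA-Line1 were *TGA1* at -0.25, *SCL14* at -0.22 and *NAC017* at -0.21 (edgeR adjusted p = 0.0442, 0.0369 and 0.0365), and *SCL14* and *NAC017* were lower in MC-Line3 too, at -0.56 and -0.32 (edgeR adjusted p = 0.000321 and 0.00634). The 4 higher calls in MA-Line1 became 4 to 6, and the 3 lower calls 0 to 3, when 1 library was left out, with fewer lower calls in 5 of 6 fits.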

How the data were processed

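Total polyA RNA of 6 libraries was sequenced by the authors as paired 100 bp reads from a kit that does not keep strand (TruSeq v2). Reads were trimmed with FASTX and Trimmomatic, aligned with TopHat2 to TAIR10 and counted per gene with HTSeq, and the table holds the deposited raw counts. Count table columns were assigned to samples by construct and replicate, since their line number for MC differs from the label. Of 28775 genes listed, 28009 (97.3%) matched the RefSeq annotation of TAIR10.1, which gave symbols, coordinates and sequence. Genes were filtered with filterByExpr, leaving 21206, and all 6 libraries were fitted together in edgeR 4.0.16 (R 4.3.3) with TMM scaling and a quasi-likelihood F-test, SE being the log2 fold change over the square root of F. Log2 CPM used a prior count of 2. A floor of 3 counts was 0.0443 to 0.0558 CPM.

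The 10 genes and all other gene lists were chosen with earlier results of these data known. All 10 genes were named, with, from each other list, at most 4 genes called in MA-Line1 against Col-0 with the largest change, the OPR relatives and chromosome 2 MATE genes in full, and the 5 genes most like the mean profile. Genes named outside this rule (*UGT73B1*, *CYP81D5*, *CYP91A2*, *TGA1*, *SCL14* and *NAC017*) were chosen after their values were seen. The labels call the replicates independent biological replicates without saying what separated them, so p-values measure the spread between these libraries. Alternatives were other scalings and filters, other tests (DESeq2 1.42.0 among them), a replicate block and leaving out each library.

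Same-numbered libraries did not deviate together across genes, with correlations of -0.0525 for MA-Line1 and Col-0, 0.0324 for MC-Line3 and Col-0 and -0.0125 for MA-Line1 and MC-Line3.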

Additional observations from a re-analysis of the deposited data

Results flagged for a closer look

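The difference between the effects of the stabilized and the wildtype form, tested as MA-Line1 against MC-Line3 with edgeR's quasi-likelihood test, was past the threshold for all 9 tested genes. The log2 difference was 1.96 for *CYP81D8*, 1.68 for AT2G04050, 1.63 for *UGT74E2*, 0.84 for *DTX1*, 0.77 for *UGT73B5*, 0.70 for *UGT73B3*, 0.59 for *OPR1*, 0.37 for *OPR2* and -0.99 for *CYP81D11*. The calls for *CYP81D8*, AT2G04050 and *UGT74E2* held in all 6 fits that left out 1 library, and each of the other 6 genes lost its call in at least 1 of them. Each form was carried by 1 line, and form and line cannot be told apart.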

How the results depend on the processing

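With dispersions estimated without genotypes, 0 genes of the 9 and 0 of all genes were called in any comparison by edgeR, while 5, 0 and 4 of the 9 had an unadjusted p under 0.05 in MA-Line1 against Col-0, MC-Line3 against Col-0 and MA-Line1 against MC-Line3 (2587, 1875 and 1448 of all genes). That setting counts differences between genotypes as spread between libraries, which removes calls by design, so it cannot decide how firm the calls are. For MC-Line3 against Col-0, where 3 of the 9 were called, 6 were called with no filter, 6 with the replicate block, 1 with only the groups compared, 2 with DESeq2 and 2 with the bias-adjusted quasi-likelihood fit, which was added after seeing the data. Leaving out each library in turn gave 5 to 8 called genes in MA-Line1 against Col-0 (7 with all libraries), 0 to 5 in MC-Line3 against Col-0 and 3 to 9 in MA-Line1 against MC-Line3 (9 with all libraries). The lowest of these ranges came without MC-Line3 replicate 2 for MA-Line1 against MC-Line3 and without MC-Line3 replicate 1 for MC-Line3 against Col-0. Whether the numbers of the replicates pair the libraries is not given by the labels. The replicate block left 7 and 9 calls in the comparisons of MA-Line1. Scaling by library size alone moved the median log2 fold change against Col-0 of all genes to 0.18 for MA-Line1 and to 0.14 for MC-Line3, where 2510 of 9464 calls in MA-Line1 and 2358 of 7729 in MC-Line3 were lower, against 4057 of 7864 and 3541 of 6618 with TMM. The legacy quasi-likelihood fit is the default of this edgeR version and gave identical values.

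Signs turned for values near 0 or resting on the unequal Col-0 libraries. In MC-Line3 against Col-0, scaling by library size alone gave log2 fold changes of 0.11 for AT2G04050, 0.013 for *OPR1*, 0.016 for AT2G36770, 0.030 for *EXPA18* and 0.048 for *NAC13*, and in MA-Line1 against MC-Line3 0.014 for *AOS* and 0.025 for *OPR3*. The fits without 1 library ran, in MA-Line1 against Col-0, from -0.87 to 0.16 for *CYP81D11*, from -0.16 to 0.80 for *DTX1* and from -0.25 to 1.23 for AT1G17990. In MC-Line3 against Col-0 they ran from -0.30 to 0.29 for AT2G04050, from -0.33 to 0.11 for *OPR1*, from -0.49 to 0.22 for *UGT73B3*, from -0.31 to 0.061 for AT2G36770, from -0.26 to 0.077 for *EXPA18*, from -0.41 to 0.034 for *PRP3*, from -0.034 to 0.46 for *UGT73B2*, from -1.36 to 0.12 for AT1G17990, from -0.056 to 0.22 for *TGA7* and from -0.070 to 0.12 for AT1G60730. In MA-Line1 against MC-Line3 they ran from -0.074 to 0.035 for *AOS*, from -0.049 to 0.15 for AT1G09400, from -0.047 to 0.014 for *OPR3* and from -0.0050 to 0.11 for *LOX2*. No value with a turned sign was called. With 2 libraries per genotype, the cause of a lost call was not tested.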
